A study of Mus musculus with 6 samples.

Results

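The genes described here encode the proteins that mark, license and fire DNA replication origins and that copy DNA at the fork, together with their helpers in untangling DNA and making deoxynucleotides. They were taken by name from a list of 47 genes, of which 45 had values among the 49377 gene names of the deposited tables. Cdt1 and Gins2 are not analysed here. RNA was sequenced from mouse embryonic stem cells, pluripotent cells of the early embryo, of strain C57BL/6J and genotype Mll1fl/fl; Cre-ER TM, and every group carries these alleles. Mll1 (Kmt2a) encodes a histone methyltransferase, and its floxed alleles can be deleted by the Cre once tamoxifen is given. No label records that tamoxifen was given or names the promoter that drives the Cre. One of the 3 groups was left untreated. A second received VD3, the active vitamin D hormone 1α,25-dihydroxyvitamin D3, at 1 µM over 5 days, and in the remaining group 100 µM of the Mll1 inhibitor MM-401 was added to that treatment over the same 5 days. MM-401 was not given by itself in any group, and no time is given for the untreated cells. Each group had 2 libraries, called biological duplicates, but the deposited tables hold 1 pooled value per group. No difference below therefore has a replicate check or a p-value, and the cells grew on fibroblast feeder cells, so a bulk value cannot tell fewer cells of a type from less RNA per cell.

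Replication starts in G1 phase, when the origin recognition complex (ORC) and CDC6 help to load the MCM2-7 helicase as an inactive double ring on DNA. In S phase the kinase of CDC7 and DBF4, with cyclin-dependent kinases, recruits CDC45 and the GINS complex to each ring, which makes the active helicase, and polymerase alpha-primase, polymerase epsilon and polymerase delta then copy the strands with the clamp PCNA. Mouse embryonic stem cells cycle fast with a short G1 phase and carry much of this machinery through the whole cycle. Many of these genes are known targets of E2F transcription factors, which bind near their start sites.

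Levels are given in FPKM, a fragment count scaled to transcript length and sequencing depth, and triplets of values are in the order untreated, VD3, VD3 plus MM-401. Intervals are the ones the authors deposited with each FPKM, whose level is not stated. A difference is the log2 ratio of FPKM + 1. It was called when it reached 1 (2-fold) with intervals that did not overlap. The pools held 62284598, 73636342 and 73499639 estimated counts, and the 45 genes took 1.04%, 0.997% and 0.970% of the counts that carry a gene name. Each of the 45 had at least 1355 counts in every pool. From the variance deposited with each count, the median member had a standard deviation of 16.9%, 16.8% and 17.2% of its count. The VD3 column carries the name of its group. The untreated column was matched through the start of its name, which only untreated titles share, and the combined one because its name starts with VD3 and it is not the VD3 column. Labels do not explain the rest of these names, and a different meaning would alter all results here.

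Markers of the labelled cell type were high in every pool. The 12 stem cell markers ranged from 26.4 FPKM (Zfp42, untreated) to 2088 FPKM (Dppa5a, VD3 plus MM-401). The Dppa5a locus also names Gsta2, so it is not a measure of Dppa5a alone, and it was called higher with both agents (1.73). Of 14 fibroblast markers, 7, 7 and 9 were below 1 FPKM, Lum was listed at 0 in every pool, and their summed level was 22.9, 32.4 and 23.5 FPKM. The 6 primitive endoderm markers summed to 4.67, 6.18 and 4.55 FPKM. Among 10 proliferation genes that are not replication genes, 8 were above untreated in each treated pool, with medians of 0.54 (VD3) and 0.41 (both agents). Birc5, which encodes survivin, was called higher with both agents (1.27). Cdk1 stood at 356, 577 and 546 FPKM and Cdc20 at 191, 395 and 411. Mki67 was lower in the treated pools, at 58.1, 22.5 and 18.0 FPKM, and so was Bub1, at 125, 41.2 and 44.6, with overlapping intervals in both cases. The part of these markers in the results on replication genes was not tested.

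Sequence around the start sites was not used to choose the genes, and some words were more frequent there than in other coding genes. RefSeq windows (GRCm38.p6), from 250 bases before to 50 after the start, were found for 38 of the 45 genes, with the first listed window used. At least 1 of the E2F words TTTCCCGC, TTTCGCGC, TTTGCCGC and TTTGGCGC stood on either strand in 13 of the 38 windows (34.2%), against 2.92% of 17492 protein-coding genes. An E2F word stood in 2 of the 8 windows of genes that were lowest with VD3, as described below, and in 11 of the other 30. The word CCAAT, read by the factor NF-Y, stood in 60.5% of the 38 windows against 39.0%, and the GC-box word GGGCGG in 73.7% against 46.3%. TTTGAA, a word of cell cycle promoters of the G2 phase, stood in 18.4% against 16.5%. The windows of replication genes were also richer in GC, with a median of 61.8% against 56.3%. Overlapping words were counted once per window, and a match is a stretch of letters and not a shown binding site. Bases after the start were found in a transcript of the gene for 32 of the 38 windows. The stretches below show an E2F word upstream of the RefSeq start in genes of origin binding, licensing, helicase and polymerase subunits. They run 5′ to 3′ on the gene's strand, with the word in capitals. In Orc1, Cdc6 and Mcm7 the word lies inside the gene as GENCODE bounds it, since the gene begins farther upstream there.
Orc1, chr4:108579416-108579445: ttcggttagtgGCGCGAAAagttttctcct
Orc3, chr4:34614965-34614994: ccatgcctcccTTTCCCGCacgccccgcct
Cdc6, chr11:98908002-98908031: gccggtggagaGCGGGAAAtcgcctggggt
Mcm6, chr1:128359734-128359763: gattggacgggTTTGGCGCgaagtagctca
Mcm7, chr5:138172030-138172059: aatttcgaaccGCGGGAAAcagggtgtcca
Pola1, chrX:93632275-93632304: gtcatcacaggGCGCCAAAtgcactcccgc

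Whole windows of 250 bases upstream of the RefSeq start are shown for 3 genes: Pola1 and Top1, which were lower with VD3, and Mcm5. With VD3 Mcm5 was 0.58 higher, or 0.22 relative to the median of all genes compared, with overlapping intervals. A link between these words and the levels was not tested. Capitals mark E2F words and CCAAT words on either strand. Pola1 holds 1 E2F word and 1 CCAAT word. In Mcm5 there are 2 overlapping E2F words and 2 CCAAT words, and Top1 holds none of either.
Pola1, chrX:93632156-93632405, minus strand: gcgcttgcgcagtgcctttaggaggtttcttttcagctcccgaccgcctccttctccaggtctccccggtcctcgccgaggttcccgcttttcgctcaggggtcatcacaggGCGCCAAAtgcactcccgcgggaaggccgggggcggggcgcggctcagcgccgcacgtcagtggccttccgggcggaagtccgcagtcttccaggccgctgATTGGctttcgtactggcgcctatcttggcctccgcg
Mcm5, chr8:75109259-75109508, plus strand: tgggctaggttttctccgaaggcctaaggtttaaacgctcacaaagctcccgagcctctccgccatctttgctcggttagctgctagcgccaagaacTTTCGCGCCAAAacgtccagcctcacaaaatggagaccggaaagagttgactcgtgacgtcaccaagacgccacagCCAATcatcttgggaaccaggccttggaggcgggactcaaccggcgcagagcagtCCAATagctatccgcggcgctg
Top1, chr2:160645647-160645896, plus strand: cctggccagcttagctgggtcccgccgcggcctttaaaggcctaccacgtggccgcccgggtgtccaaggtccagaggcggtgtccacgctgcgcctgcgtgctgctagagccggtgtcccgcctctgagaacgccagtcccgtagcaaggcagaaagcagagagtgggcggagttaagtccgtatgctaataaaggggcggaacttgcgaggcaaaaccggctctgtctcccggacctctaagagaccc

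VD3-treated cells were first set against untreated cells, to see which replication transcripts differ after 5 days of the hormone. Most replication genes stood slightly higher with VD3, at about the shift of the median gene, while 8 stood lower: Pola1, Orc4, Top1, Rfc1, Orc3, Dbf4, Orc2 and Cdc7, a set picked after its values were seen. Of the 45 genes, 35 were above untreated and 10 below, with a median difference of 0.42, against 0.36 for the median of all 10911 genes compared. Above that median gene were 26 of the 45 by FPKM and 23 by estimated count. By the 2-fold criterion with intervals apart, 2 of 45 (4.44%) were lower, Pola1 and Top1, against a background of 4.22% of all genes, and 0 of 45 were higher, against 0.926%. With 2-fold alone, 5 of 45 (11.1%) were lower against 8.7%, and 0 were higher against 3.54%. Relative to the median gene with intervals apart, Dbf4 joined the called genes, 3 of 45 lower (6.67%) against 6.58%, and 0 were higher against 0.422%. By count with count intervals apart, 5 were lower (11.1%), Orc4, Dbf4, Pola1, Rfc1 and Top1, against 9.34%, and 0 were higher against 0.192%. The share of lower genes was thus near the background under each of these rules. Below the median gene the spread was wide, from -1.70 for Pola1 to the eighth lowest, Cdc7, at -0.75, and the next genes, Top2a and Prim1, were at -0.33 and -0.15. At the other end Fen1 stood highest with 0.84, so no replication gene reached a 2-fold higher value.

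Cells given both agents were next set against untreated cells, a comparison that cannot separate the agents. Here 34 of the 45 genes were above untreated and 11 below. The median difference was 0.48, against 0.27 for all 10966 genes, but by estimated count it was -0.015, against 0.035 for all genes. Rpa3 was called higher (1 of 45, 2.22%), against a background of 4.26%, and Pola1 was called lower (2.22%) against 2.68%. With 2-fold alone, 5 of 45 were higher (11.1% against 13.4%), namely Mcm7, Pold1, Rfc3, Rfc4 and Rpa3, and 2 were lower (4.44% against 6.24%), Pola1 and Top1. Relative to the median gene, Pola1 and Top1 were lower with intervals apart (4.44% against 3.69%) and 0 were higher against 1.72%. By count, Pola1, Rfc1 and Top1 were lower (6.67% against 5.77%) and 0 were higher against 1.85%. These shares, too, lay near their backgrounds.

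The pool with both agents was last set against VD3 alone, which addresses what the inhibitor adds. The median difference was 0.26, against 0.02 for all 10717 genes. By count it was 0.04, against 0.02 for all genes. No replication gene was called, against a background of 0.83% higher and 0.541% lower. None was called relative to the median gene (backgrounds 0.765% and 0.569%), by count (0.607% and 0.0933%) or after adjustment for GC content and length (0.127% and 0.151%). With 2-fold alone, Prim1, Pold1 and Orc4 were higher (6.67% against 4.67%) and Orc1 was lower (2.22% against 2.02%). All 3 comparisons share pools, so the values of each gene are given below for every pool side by side.

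**Figure D1:**
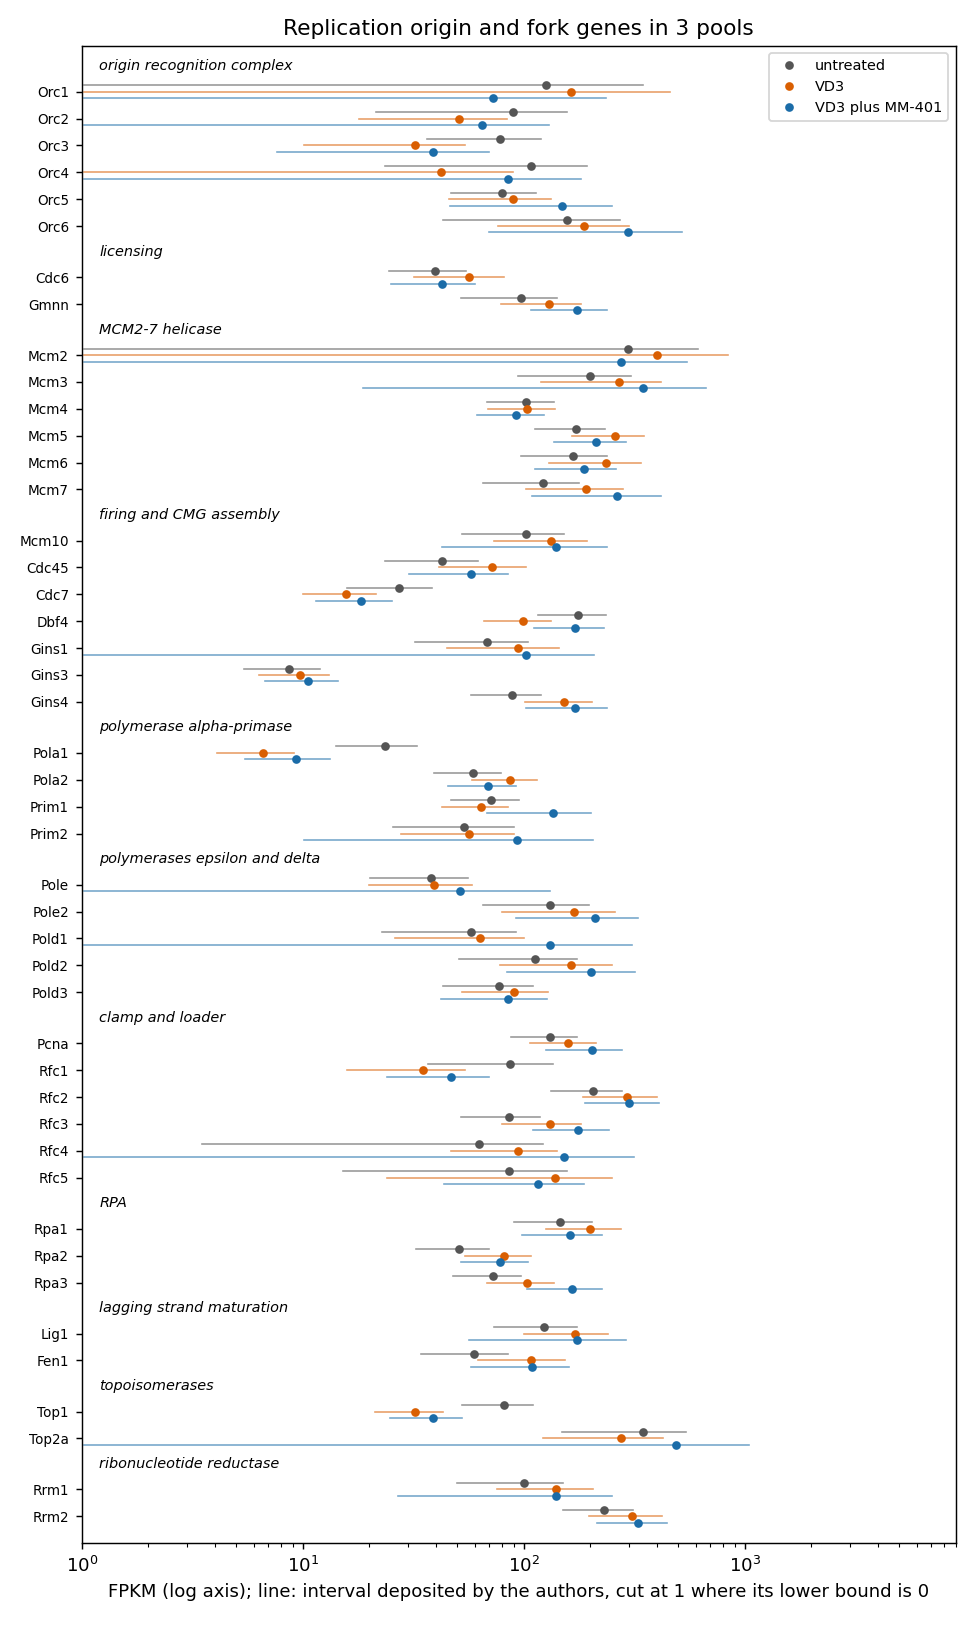
FPKM of the 45 replication genes (log axis), grouped by role, in the pools of untreated, VD3-treated and doubly treated cells; points are deposited values and lines are the authors' intervals, drawn from 1 where the lower bound is 0. The Pola1 and Top1 intervals of the VD3 pool lie clear of untreated, and Gins3, near 10 FPKM, and Pola1 are the lowest genes.

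The ORC binds origins and, with CDC6, loads the helicase; ORC1 to ORC5 form its ring, and ORC6 joins it. Orc3 (chromosome 4, 34570796 to 34614944) stood at 78.2 FPKM untreated (interval 36.5 to 120.0), 32.2 with VD3 (10.2 to 54.2) and 38.8 with both agents. Orc4 was at 108, 42.1 and 85.1 FPKM, and Orc2 at 89.7, 50.8 and 64.7. These 3 subunits were lower in the VD3 pool by -1.26, -1.35 and -0.81 on the log2 scale, and the intervals overlapped each time. Their exons are partly shared: Orc4 overlaps Acvr2a and Mbd5, and Orc2 overlaps Nif3l1, on the opposite strand, and the counting is not stated to use strand.

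The remaining ORC subunits were above untreated with VD3 by FPKM, though Orc5 was at -0.34 by count and Orc6 at -0.01. Orc6 was at 158, 187 and 295 FPKM and Orc5 at 80.2, 89.7 and 148. Orc1, whose product contacts and hydrolyses ATP in the loading step, was at 126, 164 and 72.7 FPKM, and its lower bound was 0 in every pool. It had the lowest difference of the 45 genes between both agents and VD3, at -1.16, and by count that difference was -0.45. Within the complex the highest subunit stood 2.02 times above the lowest in untreated cells, 5.82 times in the VD3 pool and 7.61 times with both agents.

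Of the licensing genes, Cdc6, the ATPase that loads MCM2-7 together with ORC, was at 39.8, 56.7 and 42.8 FPKM. Its lowest difference was -0.40, between both agents and VD3. Gmnn encodes geminin, which blocks relicensing by binding CDT1, and stood at 96.8, 131 and 174 FPKM. Intervals overlapped for both genes in every comparison.

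MCM2 to MCM7 form the replicative helicase in equal amounts of protein. Mcm2 was at 295, 402 and 274 FPKM, with a lower bound of 0 in every pool. Mcm3 was at 199.5, 269.6 and 345 FPKM, Mcm5 at 173, 259 and 213, and Mcm6 at 168, 235 and 187. Mcm7 was at 122, 192 and 264 FPKM; its locus also carries Mir25 and Mir93. Mcm4 was the lowest, at 103, 104 and 92.2 FPKM. With VD3 all 6 were above untreated, by 0.01 (Mcm4) to 0.65 (Mcm7), and 5 of 6 were above the median gene, while by count Mcm4 was at -0.23. None was called, and the highest stood 2.87, 3.88 and 3.74 times above the lowest in the 3 pools. With both agents Mcm7 reached 1.11 by FPKM but 0.27 by count, and Mcm3 was at 0.79 by FPKM and -0.12 by count.

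Genes that fire the loaded helicase split in the VD3 pool. Cdc7, the kinase subunit, was at 27.1 FPKM untreated, 15.7 with VD3 and 18.4 with both agents. Dbf4, its activating subunit, was at 176 FPKM (116 to 236), 99.6 (66.1 to 133) and 171. Both were lower with VD3, by -0.75 and -0.82, with overlapping intervals, and relative to the median gene Dbf4 reached -1.18 with intervals apart. Dbf4 stood 6.48, 6.33 and 9.29 times above its partner in the 3 pools.

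The factors that act with these kinases were instead higher with VD3 by FPKM, though Gins3 was at -0.04 by count. Cdc45 was at 42.8, 71.8 and 57.7 FPKM, a VD3 difference of 0.73, and Mcm10, which helps to open the ring, at 103, 134 and 141. Of the GINS subunits, Gins4 was at 88.9, 153 and 170.4 FPKM and Gins1 at 68.1, 94.5 and 103. Gins3 was far lower, at 8.68, 9.75 and 10.6 FPKM, although the GINS complex holds its subunits in equal numbers. In untreated cells Gins4 stood 10.2 times above Gins3, and Gins1 7.85 times. None of the 5 genes had intervals apart between pools.

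Polymerase alpha-primase starts every new strand with a short RNA-DNA primer. Its catalytic subunit Pola1 (chromosome X, 93304767 to 93632155) stood at 23.6 FPKM untreated (14.2 to 33.1), 6.59 with VD3 (4.08 to 9.09) and 9.37 with both agents (5.49 to 13.2). Both treated pools lay below untreated with intervals apart, with log2 differences of -1.70 and -1.25, or -2.06 and -1.52 relative to the median gene. By count the difference with both agents was -1.51. By FPKM as deposited, Pola1 was the only replication gene called in both comparisons with untreated cells, which share the untreated pool. Relative to the median gene Top1 was also called in both, and by count Top1 and Rfc1 were.

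Partners of Pola1 showed no such difference. Pola2, the regulatory subunit, was at 59.0, 86.9 and 68.9 FPKM. Prim1, the catalytic primase subunit, was at 71.0, 63.9 and 135 FPKM, and its difference of 1.07 was the highest between both agents and VD3. Prim2, the large primase subunit, summed to 53.95, 56.8 and 92.9 FPKM over 3 loci. One of these Prim2 loci, with 410 counts in untreated cells and 1822 with both agents, went from 13.6 to 60.6 FPKM, while the main one went from 40.2 to 32.2. Pola2 thus stood 2.50 times above Pola1 in untreated cells, 13.2 times with VD3 and 7.35 times with both agents.

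**Figure D2:**
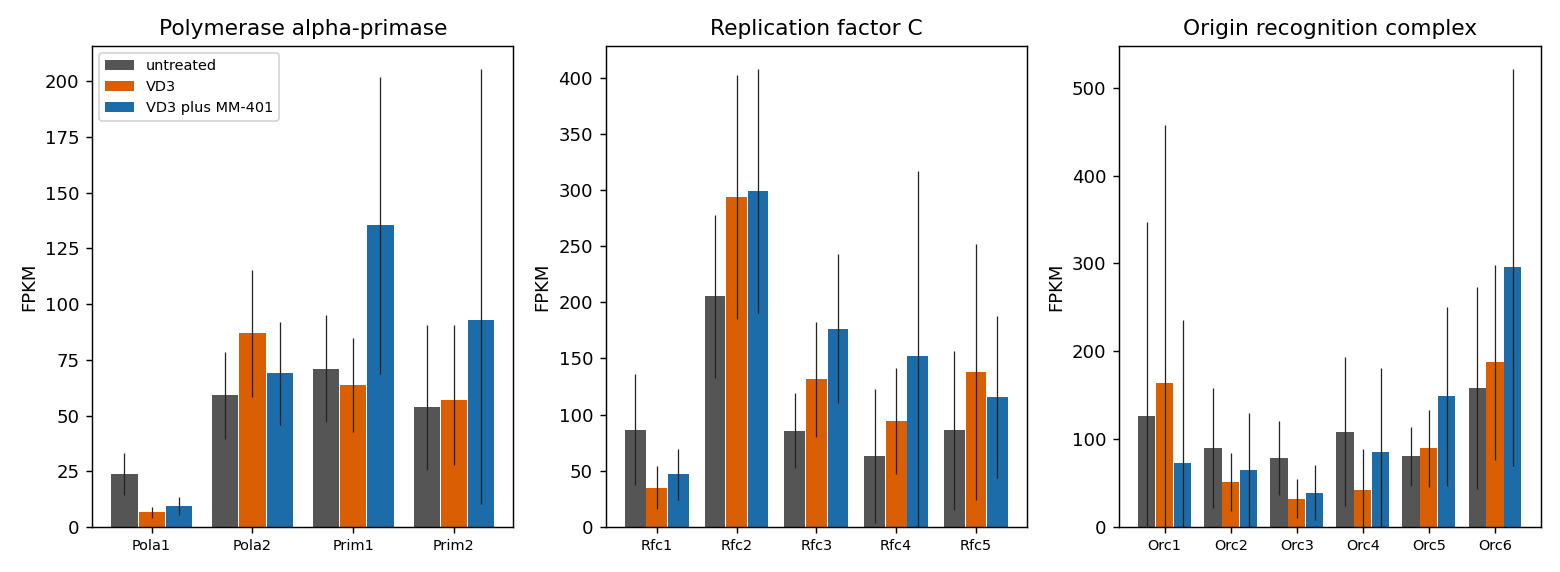
FPKM of the subunits of polymerase alpha-primase, replication factor C and the ORC in the 3 pools; bars are deposited values from 0 and lines the authors' intervals. Pola1, Rfc1, Orc2, Orc3 and Orc4 are lower in the VD3 pool than in untreated cells. Of their partners Prim1 is slightly lower and Prim2 nearly level, while the others, among them Pola2, Rfc2 and Orc6, are higher by FPKM.

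Polymerase epsilon copies the leading strand and polymerase delta the lagging strand. Pole, the catalytic subunit of epsilon, was at 38.1, 39.2 and 51.7 FPKM. The locus of Pole2 was at 131, 169 and 210.2 FPKM but also names Dnaaf2 and Rpl36al, a ribosomal protein gene, so it is not a measure of Pole2 alone. Pold2, a small subunit of delta, was at 113, 164 and 203 FPKM, and Pold3 at 77.0, 90.8 and 84.6. Pold1, the catalytic subunit of delta, stood at 57.6, 63.4 and 131 FPKM, and the interval of the highest value ran from 0 to 308. Its difference from untreated with both agents was 1.17 by FPKM and -0.06 by count.

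The clamp PCNA holds polymerases on DNA, and replication factor C loads it. Pcna was at 131, 159.5 and 203 FPKM, and the pseudogene Pcna-ps2 at 75.9, 111 and 121, so reads may be split between near-identical copies. Rfc1, the large subunit that contacts DNA (chromosome 5, 65261850 to 65335670), was at 86.6 FPKM untreated (36.9 to 136), 35.0 with VD3 (15.9 to 54.04) and 46.7 with both agents. Its differences from untreated were -1.29 and -0.88, with overlapping intervals. By count they were -1.44 and -1.05, and there the count intervals, 2 standard deviations to each side, lay apart in both.

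The 4 small loader subunits were higher in both treated pools by FPKM, but Rfc4 was at -0.36 with VD3 by count. Rfc2 was at 205, 293 and 299 FPKM, Rfc3 at 85.4, 131 and 176, Rfc4 at 63.0, 94.1 and 152 and Rfc5 at 85.9, 138 and 116. Rfc4 had the highest difference of all members with both agents, 1.26, but -0.02 by count, and its interval there was 0 to 316. Rfc2 stood 2.37 times above Rfc1 in untreated cells, 8.39 times with VD3 and 6.40 times with both agents.

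RPA coats single-stranded DNA as a trimer. Its smallest subunit Rpa3 (chromosome 6, 8255936 to 8259173) was at 72.7 FPKM untreated (48.05 to 97.4), 103 with VD3 (68.4 to 138) and 165 with both agents (104 to 227). The last lay above untreated with intervals apart, by 1.18, or 0.91 relative to the median gene, and by 0.95 by count. Rpa1 was at 147, 200.5 and 162 FPKM and Rpa2 at 51.1, 81.2 and 78.5, with overlapping intervals. Rpa3 transcripts are short, with a median of 670 bases, and AT-rich, at 40.4% GC. Across 8817 coding genes the Spearman correlation with the difference in that pool was -0.40 for length and 0.38 for GC content. After adjustment for both, the Rpa3 difference in that pool was 1.34, or 0.64 with composition from the longest transcript. The part of composition was not tested.

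Fen1 and Lig1 process and seal Okazaki fragments. Fen1, the flap nuclease, was at 59.6, 108 and 109 FPKM, and its VD3 difference of 0.84 was the highest of the members. Lig1, DNA ligase I, was at 124, 171 and 173 FPKM. Neither had intervals apart, and Fen1 exons overlap Tmem258 on the opposite strand.

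The topoisomerases relieve the twist ahead of the fork and separate the copies behind it. Top1 (chromosome 2, 160645888 to 160722764) stood at 81.5 FPKM untreated (52.5 to 111), 32.2 with VD3 (21.3 to 43.1) and 38.8 with both agents (24.9 to 52.6). With VD3 it was lower by -1.32 with intervals apart. With both agents it was lower by -1.05, and the intervals overlapped narrowly, the upper bound of 52.6 against a lower bound of 52.5. Top2a, the most highly expressed of the 45 genes in untreated cells, was at 347, 276 and 488 FPKM. With both agents its difference was 0.49 by FPKM and -0.59 by count, so its direction depends on the measure.

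Ribonucleotide reductase makes deoxynucleotides. Rrm1, its large subunit, was at 99.9, 141 and 139 FPKM, and Rrm2, the small subunit that limits its activity outside S phase, at 231, 310.2 and 329. Rrm2 stood 2.31, 2.21 and 2.36 times above Rrm1 by FPKM. By count Rrm1 was at 0.28 with VD3 and -0.25 with both agents.

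Low VD3 differences went with low transcript GC content among the replication genes as a whole, with exceptions both ways. Median GC content was 43.2% for the 8 lowest genes (range 39.3% to 47.9%) and 48.9% for the other 37, and median transcript length 2589 and 1674 bases. Across 44 members, which share the same pools, the VD3 difference and GC content had a Spearman correlation of 0.58, against 0.55 across 8797 coding genes, and with length -0.18 against -0.28. Coding genes below 42% GC had a median difference of -1.09, where Pola1 and Orc4 lie, and those of 42% to 44% one of -0.56, where Top1, Orc3 and Dbf4 lie. Genes of 54% and above had a median of 0.52, and the 5 members there had 0.54. By GC content taken as the median over transcripts, Rfc1 and Orc2 stood farthest below genes of like composition. Coding genes of 46% to 48% GC had a median of 0.15 and a lower quartile of -0.30, while Rfc1 and Orc2 were at -1.29 and -0.81. Among the AT-rich members that were not low, Orc5 (42.4% GC) was at 0.16 and Top2a (43.4%) at -0.33. Rpa3 (40.4% GC) was at 0.50, above the upper quartile of -0.50 for genes below 42%.

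The adjustment for GC content and length also takes out the shift shared by all coding genes. Adjusted values are therefore set against differences relative to the median gene. On that scale all 8 low genes lay closer to 0 after adjustment, Orc2 by the least, from -1.17 to -1.05. Adjusted VD3 differences were -1.07 for Rfc1, -1.05 for Orc2, -0.74 for Orc3, -0.73 for Pola1, -0.58 for Top1, -0.55 for Cdc7, -0.51 for Dbf4 and -0.41 for Orc4. No replication gene was called lower after adjustment, against 1.15% of coding genes, and Rpa3, at 1.18, was called higher, against 0.557%. With both agents Rpa3 was again called higher (backgrounds 0.805% higher and 0.975% lower) and no gene lower. Composition taken from the longest transcript in place of the median over transcripts gave -1.24 for Rfc1, -1.09 for Orc3, -0.91 for Pola1 and -0.87 for Cdc7. Dbf4 was then at -0.81, Top1 at -0.79, Orc2 at -0.64 and Orc4 at 0.34. Relative to the median gene before adjustment, Cdc7 was at -1.11 and Orc2 at -1.17, so both lay closer to 0 in that fit. Rpa3 was at 0.64, and there was no call. The adjusted medians over members were 0.11 with VD3 and 0.10 with both agents.

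**Figure D3:**
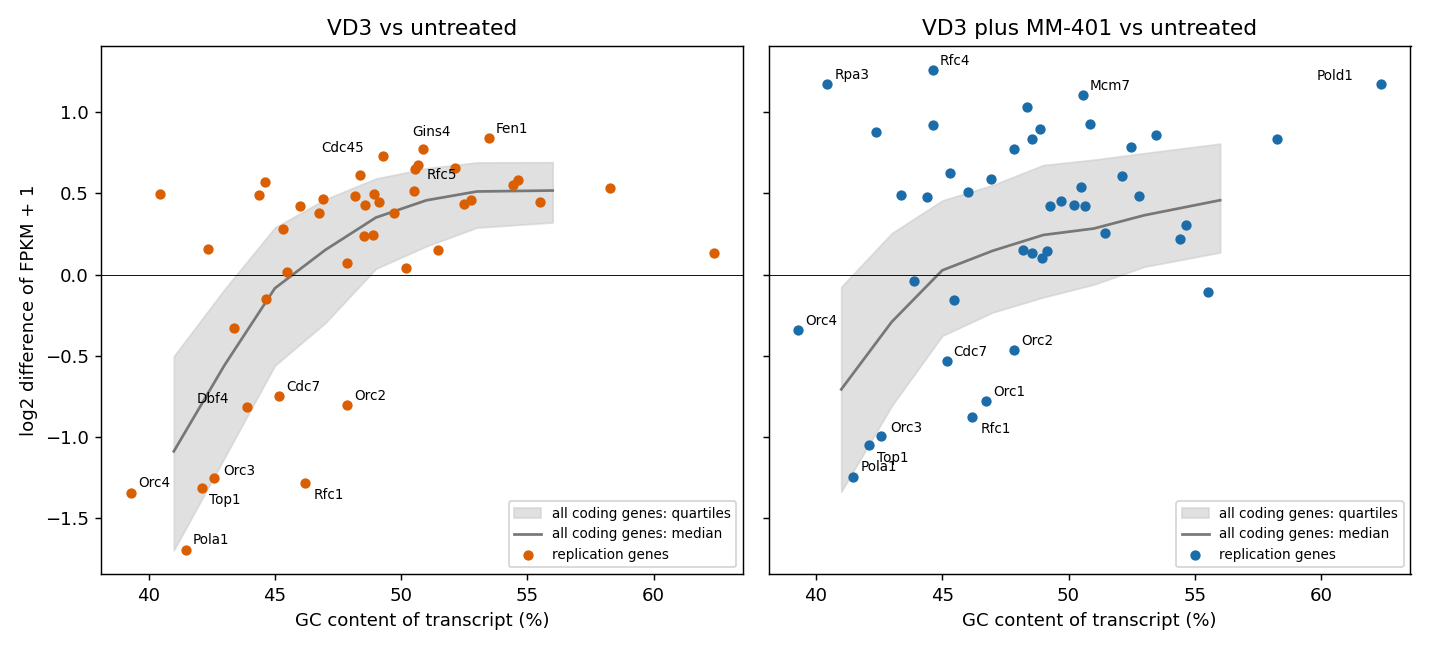
Log2 difference of FPKM + 1 from untreated against transcript GC content for 44 replication genes (points), in the VD3 pool (left) and the VD3 plus MM-401 pool (right); the line and band are the median and quartiles of all coding genes in bins of GC content. With VD3 the low genes lie at low GC content, where the median of all coding genes is low too, while Rfc1 and Orc2 lie farthest below the band.

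Values by FPKM and by estimated count parted most in the pool with both agents. Against untreated cells, 12 of the 45 genes had differences of opposite sign by the 2 measures, compared with 8 in the VD3 pool, and 4 differed by at least 1 on the log2 scale: Pole, Pold1, Rfc4 and Top2a. Each of these 4 had a lower bound of 0 in that pool, as did 9 members in all, against 2 in the untreated and 3 in the VD3 pool. Relative to the median gene of each measure, 10 genes differed in sign. Pola1, Top1, Rfc1 and Orc3 were low by both measures, and Rpa3 and Gmnn were high by both, with 0.84 and 0.83 for Gmnn.

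**Figure D4:**
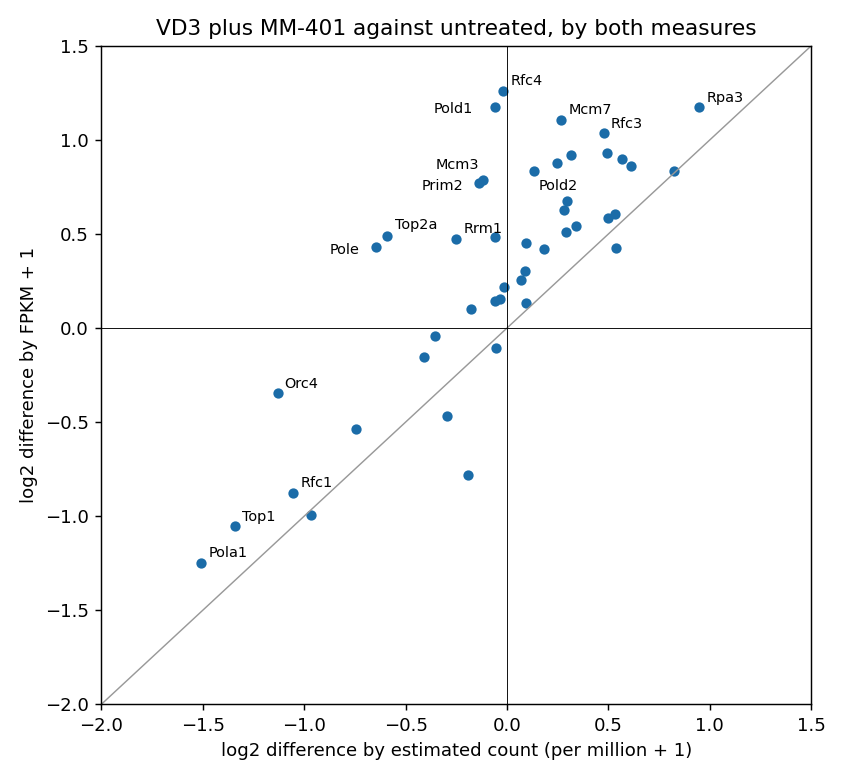
Log2 difference of VD3 plus MM-401 from untreated for the 45 replication genes, by depth-scaled estimated count (horizontal) and by FPKM (vertical), with the line of equal values. Pola1, Top1 and Rfc1 are low on both axes and Rpa3 high on both, while Rfc4, Pold1, Top2a and Pole are high by FPKM and at or below 0 by count.

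A list of 54 further genes of replication, its chromatin and its nucleotide supply was measured in the same pools. With VD3, 2 of 54 were called lower, against 4.22% of all genes, and 0 higher, against 0.926%. The median was 0.28, against 0.36 for all genes. Rif1, which sets replication timing, was at 73.4, 10.4 and 10.9 FPKM, and Atad5, which unloads PCNA, at 12.6, 2.67 and 3.40. Both were also called lower with both agents, where 0 were called higher (backgrounds 2.68% and 4.26%). After adjustment for GC content and length the VD3 difference of Rif1 went from -2.71 to -0.91 and that of Atad5 from -1.89 to -0.87. Both were then under 2-fold, so neither call held in that fit. With composition from the longest transcript they were -1.25 and -1.02, past 2-fold with intervals apart. Whether these calls held thus depended on the transcript used. Ccne2, which encodes cyclin E2, was at 35.5, 7.65 and 5.30 FPKM with overlapping intervals. Its VD3 difference of -2.08 turned to 0.21 after adjustment and was -0.44 with the longest transcript. Ccne1, for cyclin E1, was at 229, 495 and 382 FPKM and Pole3, a polymerase epsilon subunit, at 31.9, 65.5 and 58.0, with adjusted VD3 differences of 0.62 and 0.81. With both agents the median was 0.10, against 0.27 for all genes. The highest differences were those of Rnaseh2c (70.9, 121 and 204 FPKM) and Rnaseh2a (116, 203 and 276), subunits of a nuclease that removes RNA from DNA. Both had a lower bound of 0 in every pool. By count Rnaseh2c was at 0.90 and Rnaseh2a at 0.98, against 1.51 and 1.25 by FPKM. Between both agents and VD3 none of 52 was called (backgrounds 0.83% higher and 0.541% lower), and the median was 0.02, as for all genes. Top2b, a topoisomerase, was highest there, at 17.1, 4.29 and 9.73 FPKM, with Chtf18, part of an alternative clamp loader, at 66.3, 78.6 and 139. Top2b was at 0.695 by count but Chtf18 at -0.072, so the direction of Chtf18 depends on the measure. Both genes had a lower bound of 0 in the pool with both agents. E2f2, an E2F factor, was lowest in that comparison, at 6.94, 10.7 and 4.85 FPKM. It was followed by Samhd1, a deoxynucleotide hydrolase, and Uhrf1, which couples DNA methylation to replication, both at -0.80. By count E2f2, Samhd1 and Uhrf1 were at -0.44, -0.41 and -0.26, and the intervals of each gene overlapped.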

How the data were processed

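The labels name the TruSeq protocol for these RNA libraries. Build mm10 and the tools Cufflinks 2.2.1, TopHat2 2.1.1 and SAMtools 1.5 are listed, with no order, in the submitters' processing notes; settings and annotation are not given in the sources used. What the authors deposited gives, per the file headers, an FPKM with lower and upper bounds and, in a second table, an estimated count with its variance for 62490 loci, in 1 pooled column per group of 2 libraries. The planned count test across libraries was not possible, so pooled values are compared without a test. The 14 loci without a valid status were left out. Loci sharing a name were summed, and a locus naming exactly 1 protein-coding gene took its name. For 40 of the 45 members no other gene is named in the locus. Some loci run past the gene they name: that of Orc4 spans 48814109 to 49325405, against 48902824 to 48950277 for the gene. A gene was compared where its higher pool reached 5 FPKM, which held for all 45 members. Differences used a pseudocount of 1. Coordinates, transcript length and GC content (medians over protein-coding transcripts) come from GENCODE vM21 on GRCm38, the build that mm10 names, and the adjustment was a cubic fit of the difference on both over coding genes. Count intervals were the count plus and minus 2 standard deviations. Exons of 10 members overlap a coding gene on the opposite strand. Members named in full were those called, the 5 highest and 5 lowest of each comparison and Mcm2 to Mcm7; of the 54 other genes, those called and the 2 highest and 2 lowest. Members, lists and tests were chosen with earlier results of these data known. Python 3.11.15, numpy 2.4.6, pandas 2.3.3 and scipy 1.17.1 were used, and the difference function was tested on simulated data. Alternatives were other pseudocounts, filters, scalings, measures, locus rules and folds.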

Additional observations from a re-analysis of the deposited data

How the results depend on the processing

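No paired analysis was possible because each group has 1 pooled column, and for the same reason no replicate could be left out. The number of called replication genes stayed at 2, 2 and 0 in the 3 comparisons under several settings. These were the pseudocount of 0.1, both other filters on low values, both other locus rules and the 1.5-fold criterion. Under them the median differences stayed within the typical standard deviation of a member, 0.35. That is the spread of a single gene and not of a median over the members, so it is a lenient limit. With a pseudocount of 5, 1 gene was called with both agents against untreated. For VD3 against untreated, 5 genes were called by count and 5 by 2-fold alone, 1 after adjustment for GC content and length and 0 with the longest transcript; the median was 0.059 when centred on the median gene and 0.046 with the longest transcript. For both agents against untreated, 7 were called by 2-fold alone, 1 after adjustment and 0 with the longest transcript, and the median was -0.015 by count, 0.096 after adjustment and 0.12 with the longest transcript. For both agents against VD3, 4 were called by 2-fold alone. Fits on counts, added after the data were seen as was the longest transcript, gave 6 calls and a median of 0.032 (VD3) and a median of -0.050 (both agents) when centred, and 1 call each with medians of 0.040 and 0.013 when adjusted. The cause of these shifts was not tested. Pola1, Top1 and Rpa3, the genes called by FPKM as deposited, kept their direction under these settings. Among genes past 2-fold alone, Pold1 and Rfc4 with both agents were at -0.06 and -0.02 by count, and Orc4 with VD3 was at 0.34 with the longest transcript.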
